A study of Mus musculus with 49 samples.

Results

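The 10 genes described here encode costimulatory receptors and tumor necrosis factor (TNF) family ligands of T cells: *Cd28*, *Icos*, *Cd27*, *Tnfrsf4*, *Tnfrsf9*, *Tnfrsf18*, *Cd70*, *Tnfsf8*, *Tnfsf10*, and *Tnfsf14*. They were picked by symbol from the RNA-seq data, with the longest RefSeq transcript standing for each gene, and are 10 of 23992 genes. The rule uses no measured value of these genes, but they were chosen with earlier results of these data known. RNA was measured in CD8+ T cells purified from the spleens of C57BL/6J mice with a tyrosine-to-phenylalanine substitution in STAT5A (Y694F, *Stat5a* KI) or in STAT5B (Y699F, *Stat5b* KI), and in WT cells of the same line. STAT5A and STAT5B are transcription factors that IL-2 switches on through this tyrosine. Male and female mice aged 8 to 24 weeks were used, and KI (homozygous) and WT mice came from matings of heterozygotes after 6 generations of backcrossing. Cells were collected at 0 hr or after 4, 24, or 48 hr in 500 IU/ml recombinant human IL-2, and no stimulus of the antigen receptor is named for these cultures. No group was cultured for these times without IL-2. Changes against 0 hr, called IL-2 responses below, therefore cannot be told apart from effects of isolation and culture. Each combination of line, genotype, and time had 3 libraries, 1 of which was left out for *Stat5a* KI cells at 4 hr, so 16 groups hold 47 libraries. The substitution is carried by every cell of the mouse, and the purified T cells therefore developed with it. The labels do not say whether the libraries of a group came from separate mice, so p-values measure the spread between libraries, which may be technical.

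CD28 and ICOS are receptors of the immunoglobulin family that bind B7-type ligands on antigen-presenting cells and lower the threshold for T cell activation. CD27, OX40 (*Tnfrsf4*), CD137 (*Tnfrsf9*), and GITR (*Tnfrsf18*) are TNF receptors that recruit TRAF adaptors, feed the NF-κB pathway, and are known for sustaining the survival and expansion of activated CD8+ T cells. The ligands are CD70, which binds CD27, CD30 ligand (*Tnfsf8*), which binds CD30 (*Tnfrsf8*), TRAIL (*Tnfsf10*), which binds death receptors, and LIGHT (*Tnfsf14*), which binds HVEM (*Tnfrsf14*) and the lymphotoxin beta receptor.

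Depth, counted as reads on the longest transcripts, ran from 17369112 to 60200653 (median 41410666). WT replicate 2 of the *Stat5a* line at 4 hr was the shallowest of the 47 libraries, and its 17369112 reads were 44.86% of its mapped reads, beside up to 84.43% elsewhere. The library left out had 1028515 reads on these transcripts, 5.68% of its mapped reads. Of the 10 genes, 9 had 41 to 25077 reads in every library used. *Cd70* had 1 to 23 reads, with a median of 8, and 11 libraries had 3 reads or fewer, so its values carry a large counting error. Intervals and floors of reads cover counting error only. All 10 genes passed the filter on low counts and were tested among 15566 genes. Levels are given as RPKM (mapped reads scaled to transcript length and library depth) in replicates 1, 2, and 3 or as mean ± SD, and differences as log2 fold changes from the quasi-likelihood test of edgeR, adjusted by Benjamini-Hochberg over all genes tested. A gene is said to rise or fall where the adjusted p was at most 0.05 and the change at least 2-fold. The fold is that of the fit. RPKM are scaled to all mapped reads and the fit by its own library factors, so ratios of RPKM can differ from it.

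*Tnfrsf9*, *Tnfrsf18*, and *Tnfsf8* rose and *Cd28* and *Tnfsf14* fell in WT cells of both lines by 4 hr of IL-2 culture, and *Tnfrsf9* rose again between 24 and 48 hr. In KI cells of both lines *Tnfrsf9* was lower than in WT cells at 24 and 48 hr, and in *Stat5b* KI cells *Tnfsf14* was lower at both times. Of the 30 gene-by-time comparisons of IL-2 with 0 hr in WT cells, 14 passed in the *Stat5a* line (10 higher and 4 lower) and 16 in the *Stat5b* line (12 higher and 4 lower). Over all genes tested, 27.0% and 24.5% of such comparisons passed. In KI cells 14 of 30 passed in the *Stat5a* line, beside 21.6% over all genes, and 10 of 30 in the *Stat5b* line, beside 16.1%. Of the 40 comparisons of KI with WT cells, 2 passed in the *Stat5a* line, both lower in KI cells, beside 5.22% over all genes, and 7 passed in the *Stat5b* line, 6 lower and 1 higher, beside 15.3%. Taken in either direction, these counts of KI against WT are near the share of all genes. By direction, 0, 2, 2, and 2 of the 10 genes were lower in *Stat5b* KI cells at 0, 4, 24, and 48 hr. Over all genes 0.604%, 1.23%, 5.77%, and 9.81% were lower there, and 7.38%, 9.20%, 10.9%, and 16.5% higher. In the *Stat5a* line 0, 0, 1, and 1 were lower, beside 0.180%, 4.16%, 1.24%, and 2.43%. The 10 genes were not tested as a set, and the counts are no result about it. The comparisons with 0 hr share the 0 hr libraries of a group, and the comparisons of KI with WT share the WT libraries of the IL-2 comparisons.

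**Figure D1:**
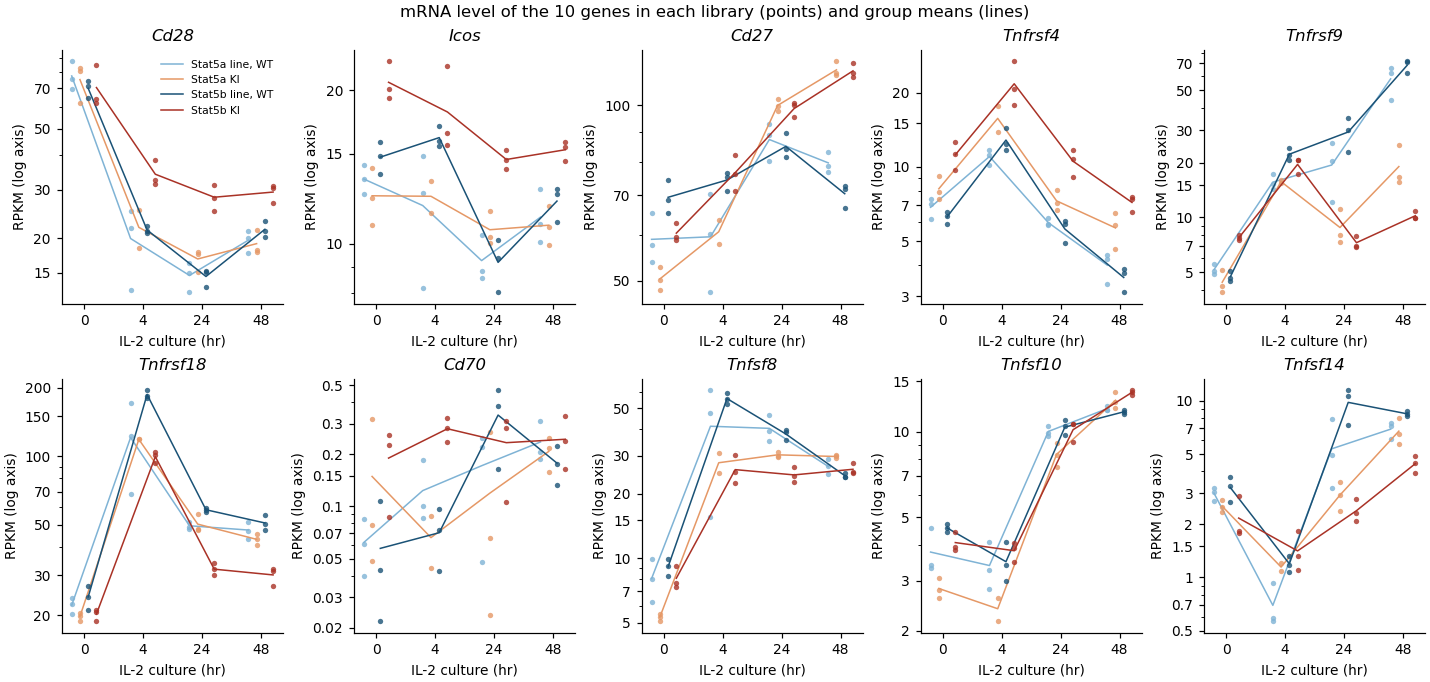
The level of each gene in each library is plotted as RPKM on a log axis (points) against hours of IL-2 culture, with lines through the group means for WT and KI cells of both lines. *Tnfrsf9* separates WT from KI cells at 24 and 48 hr in both lines, *Tnfrsf18* peaks at 4 hr in every group, and the points of *Cd70* lie between 0.0219 and 0.466 RPKM.

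The levels of several cell type marker lists differed between the genotypes. Of the 5 CD8 T cell marker genes (*Cd8a*, *Cd8b1*, and the CD3 chains), 0 passed the test between KI and WT cells at any time in either line. Their most abundant gene, *Cd8b1*, stood at 289 ± 14.2 RPKM in WT and 507 ± 26.1 in KI cells of the *Stat5b* line at 48 hr (n = 3 each). At 48 hr, 8.78% of all genes tested passed between KI and WT cells of the *Stat5a* line and 26.3% between those of the *Stat5b* line, in either direction, which is the background for the marker counts at that time. All 9 B cell markers were higher in KI than in WT cells at 48 hr in both lines, with median log2 fold changes of 2.16 (*Stat5a* line) and 3.81 (*Stat5b* line). Their summed level in the *Stat5b* line was 232.5 ± 2.97 RPKM in KI and 57.9 ± 5.12 in WT cells at 0 hr, and 125.1 ± 3.82 and 11.95 ± 1.15 at 48 hr. In the *Stat5a* line it was 288 ± 28.7 and 126.1 ± 61.5 at 0 hr, and 109.1 ± 9.15 and 27.0 ± 13.03 at 48 hr. The most abundant B cell marker was *Cd79a*, at 44.8 ± 0.541 RPKM in *Stat5b* KI and 2.85 ± 0.317 in WT cells at 48 hr.

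Of 10 myeloid markers 9 were in the files and tested, and at 48 hr 7 were higher with the *Stat5a* and 9 with the *Stat5b* substitution. Their sum at 48 hr was 79.9 ± 17.7 RPKM in *Stat5b* KI and 4.07 ± 0.756 in WT cells, with *Lyz2* the most abundant, and 1 or 2 of the 9 genes were at 0 in each of those WT libraries. Of 3 CD4 T cell markers, with *Cd4* the most abundant, 2 were higher at 48 hr in KI cells of each line, with sums of 13.8 ± 0.443 against 3.35 ± 0.459 RPKM in the *Stat5b* line. Dendritic cell markers, with *Siglech* the most abundant, were higher for 4 of 5 genes in the *Stat5a* and 5 of 5 in the *Stat5b* line at 48 hr, and NK cell markers, with *Tyrobp* the most abundant, were higher for 1 of 5 and 3 of 5, with 1 of 5 lower in the *Stat5b* line. Erythroid markers (5 listed, 4 in the files, *Alas2* the most abundant) passed for 0 of 4 and 2 of 4 and platelet markers (*Itga2b* the most abundant) for 1 of 4 and 2 of 4, all higher in KI cells, at sums under 2 RPKM in every group at 48 hr. Regulatory T cell markers, with *Il2ra* the most abundant, were lower for 1 of 3 genes in each line and higher for 1 of 3 in the *Stat5b* line. The paper counts *Il2ra*, and *Il2rb* of the memory-phenotype list, among IL-2-inducible genes and STAT5 targets. In WT cells of the *Stat5b* line the regulatory sum was 7.87 RPKM at 0 hr and 65.25 RPKM at 48 hr. The memory-phenotype sum was 446 and 1142 RPKM there. These 2 sums are therefore no measure of cell make-up alone. Memory-phenotype CD8 T cell markers, with *Ly6c2* the most abundant, summed to 528.5 ± 76.5 RPKM in *Stat5b* KI and 1142 ± 12.7 in WT cells at 48 hr, with 3 of 6 genes lower, and to 609 ± 52.2 and 988 ± 111.3 in the *Stat5a* line, with 1 of 6 lower. Naive T cell markers were higher for 3 of 6 genes in the *Stat5b* and 1 of 6 in the *Stat5a* line. The part of these cells in the differences given below was not tested. In bulk RNA, fewer cells that express a gene and less of its RNA per cell cannot be told apart.

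**Figure D2:**
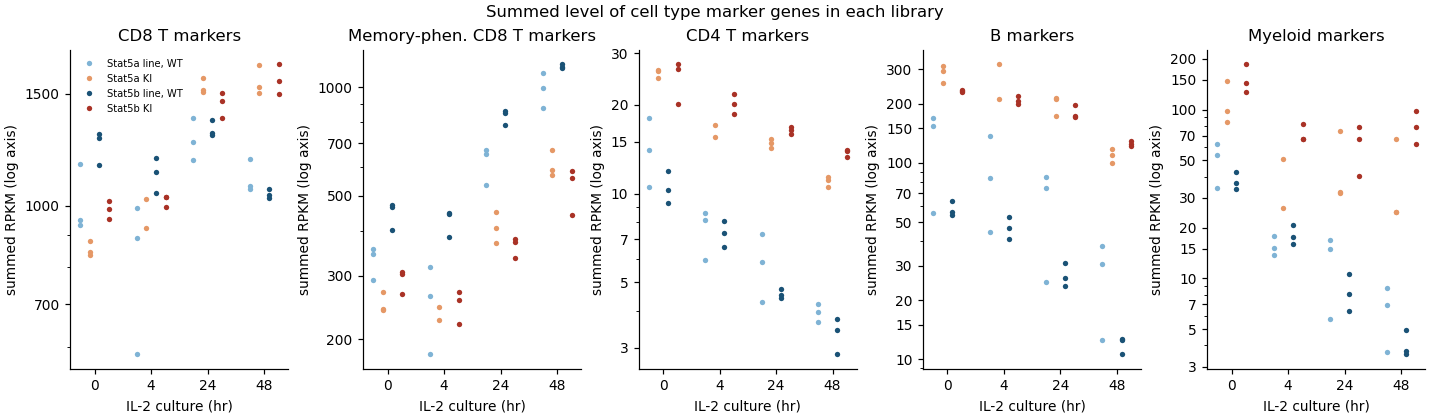
The summed RPKM of 5 marker lists is plotted on a log axis for each library (points) against hours of IL-2 culture, by line and genotype. The B cell and myeloid sums of *Stat5b* KI libraries lie above those of WT libraries at every time, and the memory-phenotype sums of KI libraries lie below those of WT libraries at 48 hr.

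*Cd28* fell in each of the 12 comparisons of IL-2 culture with 0 hr. It is on chromosome 1 (GRCm38, 60746388 to 60773359, plus strand). Its level in WT cells of the *Stat5b* line was 71.2, 64.7, and 74.2 RPKM at 0 hr and 22.2, 21.2, and 21.0 RPKM at 4 hr. At 24 hr it was 15.2, 13.4, and 15.1 RPKM, and at 48 hr 20.2, 23.2, and 21.3 RPKM. No library with IL-2 overlapped those at 0 hr, and the fall was already present at 4 hr. The log2 fold changes against 0 hr were −1.88, −2.45, and −1.87 (SE 0.13, 0.14, and 0.13, adjusted p = 2.1e-14, 1.2e-17, and 3.8e-15). For WT cells of the *Stat5a* line they were −1.96, −2.58, and −2.19, and *Cd28* fell at all 3 times in *Stat5a* KI cells as well, by 2.01, 2.38, and 2.22 on the log2 scale. *Stat5b* KI cells had 62.0, 64.2, and 85.3 RPKM at 0 hr, 31.3, 28.1, and 25.2 RPKM at 24 hr, and 27.0, 30.9, and 30.5 RPKM at 48 hr. It therefore fell there too, by 1.27, 1.48, and 1.45 on the log2 scale at the 3 times. At 24 hr all *Stat5b* KI libraries lay above all WT libraries, with a log2 fold change of 0.93 (SE 0.13, adjusted p = 2.5e-07), just under 2-fold. It passes without KI replicate 3 of 24 hr (1.01). The IL-2 response at 24 hr differed between genotypes by 0.98 (SE 0.18, adjusted p = 5.4e-05), also just under 2-fold. This difference passes without WT replicate 2 or KI replicate 3 of 0 hr (1.06 and 1.17). It also passes without WT replicate 1 or 3 or KI replicate 3 of 24 hr (1.04, 1.02, and 1.08), and with only the groups compared (1.02).

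*Icos*, the inducible relative of *Cd28* on the same chromosome (60977914 to 61000320), had no comparison that reached 2-fold. Its 16 group means ran from 9.19 ± 1.07 RPKM in WT cells of the *Stat5b* line at 24 hr to 20.7 ± 1.82 RPKM in *Stat5b* KI cells at 0 hr, and the ranges of every pair of neighbors in that order overlapped. The log2 fold change nearest to 2-fold was −0.87 (SE 0.11, adjusted p = 2.1e-08), for 24 hr against 0 hr in WT cells of the *Stat5b* line. At 24 hr *Stat5b* KI cells had 15.3, 14.6, and 13.99 RPKM against 9.38, 8.04, and 10.2 RPKM in WT cells, a log2 fold change of 0.64 (SE 0.11, adjusted p = 9.8e-06).

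*Cd27*, the receptor of CD70 and on chromosome 6 (125232622 to 125237027, minus strand), is among the more abundant of the 10 genes. In WT cells of the *Stat5b* line it was 65.3, 74.5, and 68.7 RPKM at 0 hr and 71.9, 66.7, and 72.8 RPKM at 48 hr, ranges that overlap. *Stat5b* KI cells had 58.7, 62.8, and 59.5 RPKM at 0 hr and 118.3, 113.5, and 111.6 RPKM at 48 hr. The KI libraries were thus below every WT library at 0 hr and above every one at 48 hr. KI against WT at 48 hr was 0.62 (SE 0.07, adjusted p = 1.2e-09) in the *Stat5b* line and 0.48 (SE 0.07, adjusted p = 8.2e-07) in the *Stat5a* line, both under 2-fold. The IL-2 response at 48 hr differed between genotypes by 0.89 (SE 0.10, adjusted p = 2.1e-09) and 0.72 (SE 0.10, adjusted p = 1.3e-06), and between the lines the KI effect at 48 hr differed by 0.14 (SE 0.10, adjusted p = 0.40).

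*Tnfrsf4* (OX40) and *Tnfrsf18* (GITR) are neighbors on chromosome 4, and both were at their highest group mean at 4 hr in every line and genotype. *Tnfrsf4* (156013695 to 156016589, plus strand) was 6.601, 5.88, and 6.36 RPKM at 0 hr, 14.4, 12.4, and 11.7 RPKM at 4 hr, and 3.88, 3.72, and 3.12 RPKM at 48 hr in WT cells of the *Stat5b* line. The 4 hr libraries lay above those of 0 hr and the 48 hr libraries below, but neither change was 2-fold in the fit. The log2 fold changes were 0.86 and −0.99 (SE 0.15 each, adjusted p = 8.4e-06 and 6.0e-07). By mean RPKM the level was 12.84 at 4 hr and 6.281 at 0 hr. It fell from 4 to 24 hr in WT cells, by 1.21 on the log2 scale in the *Stat5b* line and 1.12 in the *Stat5a* line, the latter being −0.94 without WT replicate 2 at 4 hr, the shallow library, and −0.79 by limma on log2(RPKM + 1). In *Stat5b* KI cells *Tnfrsf4* was 11.3, 12.7, and 9.68 RPKM at 0 hr and 7.42, 6.55, and 7.60 RPKM at 48 hr, above all WT libraries both times. KI against WT gave log2 fold changes of 0.77, 0.64, 0.88, and 0.93 at 0, 4, 24, and 48 hr (SE 0.15 each, adjusted p of 2.4e-06 to 9.4e-04), all under 2-fold in the fit. The ratio of mean RPKM at 48 hr was 2.01.

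*Tnfrsf18* (chromosome 4, 156026322 to 156028894, plus strand) had the largest early response of the 6 receptors. In WT cells of the *Stat5b* line it went from 21.1, 24.2, and 27.0 RPKM at 0 hr to 195, 185, and 181 RPKM at 4 hr. It then came back to 57.2, 58.0, and 59.5 RPKM at 24 hr and 50.2, 55.3, and 47.3 RPKM at 48 hr. The rise at 4 hr was 2.79 on the log2 scale (SE 0.11, adjusted p = 1.3e-21) and the fall from 4 to 24 hr was 1.70 (SE 0.10, adjusted p = 3.7e-16). The 4 hr libraries of WT cells of the *Stat5a* line spread from 68.1 RPKM in the shallow replicate 2 to 123.4 and 171.5 RPKM, and the rise was 2.43 with that library and 2.56 without it. In *Stat5b* KI cells *Tnfrsf18* was 20.6, 21.1, and 18.9 RPKM at 0 hr and 102, 104, and 93.3 RPKM at 4 hr, below every WT library at 4 hr. At 48 hr it was 31.3, 32.0, and 26.9 RPKM, again below every WT library. KI against WT was −1.02 on the log2 scale at 4 hr (SE 0.10, adjusted p = 1.4e-09), and −0.90 and −0.84 at 24 and 48 hr (SE 0.10 each, adjusted p = 3.6e-09 and 7.0e-09). The call at 4 hr sits at the 2-fold limit and is lost without WT replicate 1 (−0.96), KI replicate 1 (−0.99), or KI replicate 3 (−0.97). In the *Stat5a* line the log2 fold changes of KI against WT were −0.26, −0.04, and −0.19 at 4, 24, and 48 hr, and the KI effects of the lines differed by −0.76, −0.86, and −0.65 (SE 0.15, 0.14, and 0.14, adjusted p = 0.0037, 6.2e-05, and 0.0025), each under 2-fold.

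*Tnfrsf9* (CD137; chromosome 4, 150920155 to 150946102, plus strand) showed the largest difference between genotypes of the 10 genes, and it grew with time in culture. In WT cells of the *Stat5b* line it was 4.47, 4.67, and 5.08 RPKM at 0 hr and 21.9, 24.1, and 20.6 RPKM at 4 hr. It was 30.3, 35.1, and 22.9 RPKM at 24 hr and 71.2, 71.7, and 61.8 RPKM at 48 hr. The ranges of 0, 4, and 48 hr do not touch, while 4 and 24 hr overlap. Against 0 hr the log2 fold changes were 2.06, 2.45, and 3.68 (SE 0.20, 0.20, and 0.21, adjusted p = 6.2e-11, 5.1e-13, and 7.9e-18), and the step from 24 to 48 hr was 1.23 (SE 0.19, adjusted p = 2.2e-06). WT cells of the *Stat5a* line gave 1.67, 1.74, and 3.27 against 0 hr and 1.53 for the last step.

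In *Stat5b* KI cells *Tnfrsf9* rose at 4 hr only. It was 7.96, 7.71, and 7.49 RPKM at 0 hr and 20.6, 20.6, and 17.4 RPKM at 4 hr. It was 6.99, 6.93, and 7.89 RPKM at 24 hr and 10.8, 9.92, and 9.94 RPKM at 48 hr. The libraries of 24 hr overlap those of 0 hr, and no KI library of 24 or 48 hr reached the lowest WT library of the same time. Against 0 hr *Tnfrsf9* rose by 1.11 at 4 hr (SE 0.19, adjusted p = 9.6e-06), and the log2 fold changes at 24 and 48 hr were −0.24 and 0.21 (SE 0.20 and 0.19, adjusted p = 0.33 and 0.38). KI against WT was 0.64 at 0 hr (SE 0.20, adjusted p = 0.016), −0.30 at 4 hr (SE 0.19, adjusted p = 0.25), −2.05 at 24 hr (SE 0.20, adjusted p = 6.8e-11), and −2.82 at 48 hr (SE 0.20, adjusted p = 1.2e-14). The IL-2 response of KI cells was smaller than that of WT cells by 2.69 on the log2 scale at 24 hr and 3.46 at 48 hr (SE 0.28 each, adjusted p = 1.1e-09 and 1.2e-12). Among the IL-2 responses, 3 of 30 differences between KI and WT cells passed in the *Stat5b* line, beside 10.7% over all genes, and 1 of 30 in the *Stat5a* line, beside 2.73%.

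In the *Stat5a* line *Tnfrsf9* was the one gene of the 10 that passed between KI and WT cells. *Tnfrsf9* in WT cells was 12.2, 20.5, and 25.5 RPKM at 24 hr and 44.3, 62.0, and 66.4 RPKM at 48 hr. In *Stat5a* KI cells it was 11.1, 7.29, and 7.99 RPKM at 24 hr and 24.9, 15.6, and 16.6 RPKM at 48 hr. The groups do not overlap at either time, though WT replicate 1 and KI replicate 1 come close at 24 hr. KI against WT was −1.21 at 24 hr (SE 0.19, adjusted p = 3.8e-05), which is −0.98 and under 2-fold without WT replicate 3, and −1.65 at 48 hr (SE 0.19, adjusted p = 9.8e-09). *Stat5a* KI cells still raised *Tnfrsf9* against 0 hr, by 1.61 at 4 hr and 1.87 at 48 hr (SE 0.22 and 0.20, adjusted p = 8.0e-08 and 3.4e-10), while the log2 fold change at 24 hr was 0.78 (SE 0.20, adjusted p = 0.001), under 2-fold. The IL-2 response at 48 hr was smaller than in WT cells by 1.40 (SE 0.28, adjusted p = 2.0e-04). The KI effect at 48 hr was larger in the *Stat5b* than in the *Stat5a* line by 1.17 on the log2 scale (SE 0.27, adjusted p = 0.0034), and this difference is −0.94 and under 2-fold without *Stat5a* KI replicate 1. Of 40 such differences between the lines over the 10 genes 2 passed, beside 2.38% over all genes. Ordered by mean RPKM over the 16 groups, *Tnfrsf9* was highest in WT cells at 48 hr of the *Stat5b* (68.25 ± 5.57) and *Stat5a* (57.55 ± 11.7) lines, whose ranges overlap, and the next group, WT cells of the *Stat5b* line at 24 hr (29.4 ± 6.16), lay below both.

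**Figure D3:**
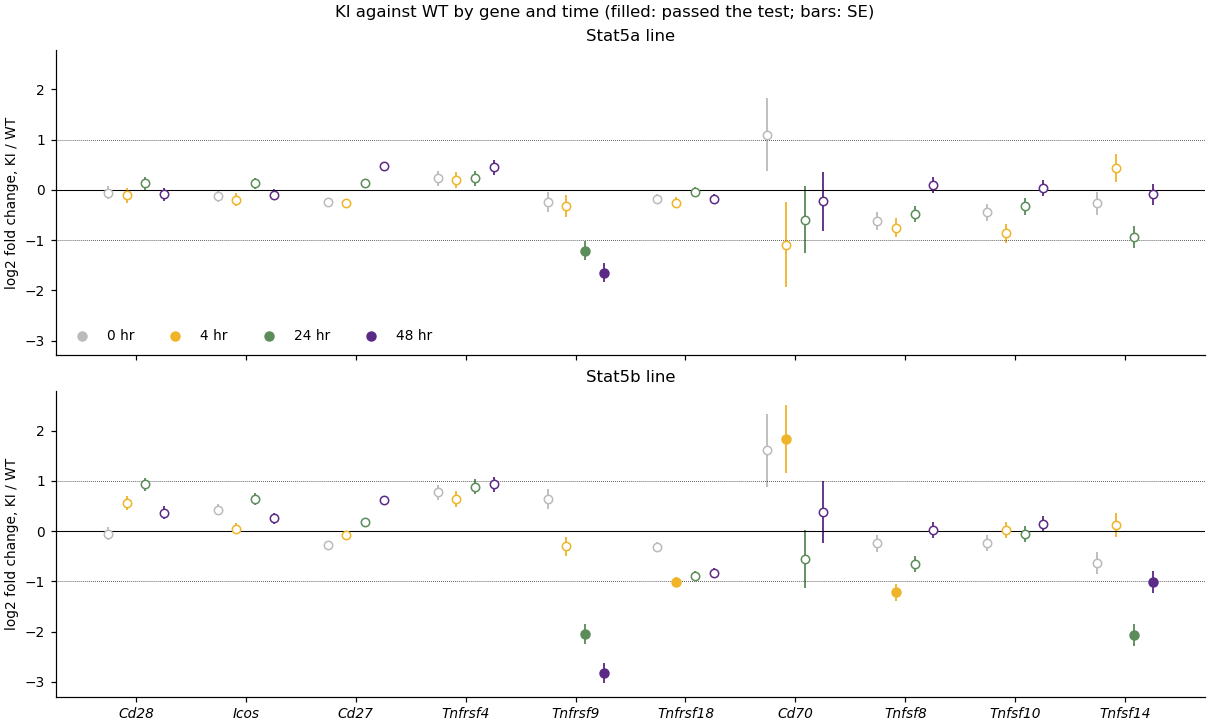
The log2 fold change of KI against WT cells is plotted for each gene at 0, 4, 24, and 48 hr in the *Stat5a* (top) and *Stat5b* (bottom) line, with SE bars, filled symbols for values that passed the test, and dotted lines at 2-fold. *Tnfrsf9* moves downward with time in both lines, to −1.65 and −2.82 at 48 hr, and *Tnfsf14* has its lowest value at 24 hr in the *Stat5b* line, at −2.06.

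RefSeq windows of 250 bases before to 50 after a start site (GRCm38.p6) were at hand for 7 of the 10 genes, with 8 start sites, and not for *Cd28*, *Icos*, and *Cd70*. STAT5 dimers are known to bind GAS elements, which were searched as TTCNNNGAA, letters that read the same on both strands. The element was found in 2 of the 8 windows, and in 8.3% of all 32851 windows. One window belongs to *Tnfrsf18*, and the other to a downstream start site of *Tnfrsf9* (150927999), which lies in an intron of the longest transcript and where the RefSeq transcript NM_001077509 begins. *Tnfrsf9* and *Tnfrsf18* rose in WT cells, and so did *Tnfsf8*, *Tnfsf10*, and *Tnfsf14*, whose windows hold no match. Whether the element has a part in any of these rises was not tested. The bases upstream are shown only for the start sites whose windows hold a match, with the element in capitals. No exon of a curated transcript of the same gene overlaps either stretch, and exons of other genes were not checked. The window at the first start site of *Tnfrsf9* holds no match. A match is a string of letters and not a measured binding site.
Tnfrsf9, chr4:150927749-150927998, plus strand, element from base −136: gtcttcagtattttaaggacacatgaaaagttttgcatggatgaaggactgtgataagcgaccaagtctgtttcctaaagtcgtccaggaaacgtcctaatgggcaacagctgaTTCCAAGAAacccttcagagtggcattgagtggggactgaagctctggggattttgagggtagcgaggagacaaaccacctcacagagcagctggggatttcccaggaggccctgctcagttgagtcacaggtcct
Tnfrsf18, chr4:156026072-156026321, plus strand, element from base −99: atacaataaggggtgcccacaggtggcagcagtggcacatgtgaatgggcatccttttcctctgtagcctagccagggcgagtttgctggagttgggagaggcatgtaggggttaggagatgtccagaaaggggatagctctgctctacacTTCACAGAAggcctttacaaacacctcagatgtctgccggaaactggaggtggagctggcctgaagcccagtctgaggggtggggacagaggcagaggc

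Among the ligands, *Tnfsf14* (LIGHT; chromosome 17, 57189474 to 57194181, minus strand) fell at 4 hr and rose from 4 to 24 hr in WT cells of both lines. In WT cells of the *Stat5b* line it was 2.68, 3.28, and 3.72 RPKM at 0 hr and 1.08, 1.33, and 1.18 RPKM at 4 hr. It was 10.6, 11.5, and 7.32 RPKM at 24 hr and 8.72, 8.41, and 8.20 RPKM at 48 hr, above every library of 0 and 4 hr. It fell by 1.60 on the log2 scale at 4 hr (SE 0.23, adjusted p = 3.4e-07) and rose by 1.42 and 1.22 at 24 and 48 hr (SE 0.22 each, adjusted p = 6.8e-07 and 6.2e-06), with a step of 3.02 from 4 to 24 hr (SE 0.24, adjusted p = 2.6e-13). On the log2(RPKM + 1) scale of limma the change at 4 hr was −0.94, under 2-fold. For the *Stat5a* line the WT values against 0 hr were −2.08 at 4 hr (SE 0.25, adjusted p = 4.3e-09), and 0.67 and 1.00 at 24 and 48 hr (SE 0.22 each, adjusted p = 0.0083 and 1.1e-04), both under 2-fold, the latter at the limit and past it when WT replicate 1 or 2 of 0 hr or any 1 of the 48 hr libraries is left out (1.01 to 1.08). In *Stat5b* KI cells it was 1.80, 2.89, and 1.82 RPKM at 0 hr, 2.33, 2.77, and 2.08 RPKM at 24 hr, and 4.86, 4.46, and 3.92 RPKM at 48 hr. Those of 24 and 48 hr lay below every WT library of the same time. KI against WT was −2.06 at 24 hr (SE 0.22, adjusted p = 1.0e-09) and −1.02 at 48 hr (SE 0.22, adjusted p = 1.0e-04), and the IL-2 response at 24 hr was smaller in KI cells by 1.43 (SE 0.31, adjusted p = 3.8e-04).

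In the *Stat5a* line *Tnfsf14* was 3.22, 4.90, and 7.93 RPKM in WT and 3.47, 2.92, and 2.39 RPKM in KI cells at 24 hr, groups that overlap, with a log2 fold change of −0.94 (SE 0.22, adjusted p = 0.0023), which passes without WT replicate 1 (−1.23) or KI replicate 1 (−1.06). At 48 hr it was 6.06, 7.22, and 7.45 RPKM in WT and 8.02, 5.68, and 6.51 RPKM in KI cells (−0.09, SE 0.21, adjusted p = 0.77). The KI effect at 24 hr differed between the lines by −1.13 (SE 0.31, adjusted p = 0.011), and this call is lost without *Stat5a* WT replicate 1 (−0.83) or *Stat5b* WT replicate 2 (−0.97), and just misses 2-fold without *Stat5a* KI replicate 1 or *Stat5b* KI replicate 3.

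*Tnfsf8* (CD30 ligand, chromosome 4, 63832824 to 63861284, minus strand) rose during IL-2 culture in every line and genotype. In WT cells of the *Stat5b* line it was 8.22, 9.19, and 9.90 RPKM at 0 hr, 55.3, 52.5, and 59.2 RPKM at 4 hr, and 23.8, 25.1, and 23.9 RPKM at 48 hr. *Stat5b* KI cells had 25.2, 30.2, and 22.4 RPKM at 4 hr and 24.9, 27.9, and 25.2 RPKM at 48 hr. The KI libraries lay below every WT library at 4 hr, and by 48 hr the genotypes overlapped. KI against WT was −1.22 at 4 hr (SE 0.17, adjusted p = 7.3e-07), −0.66 at 24 hr (SE 0.16, adjusted p = 9.3e-04), and 0.02 at 48 hr (SE 0.16, adjusted p = 0.92). In the *Stat5a* line at 4 hr it was 47.6, 15.6, and 60.8 RPKM in WT and 24.9 and 30.9 RPKM in KI cells. The low value is the shallow WT replicate 2. The log2 fold change was −0.75 with that library (SE 0.19, adjusted p = 0.0052) and −1.03 without it (adjusted p = 1.1e-05), which passes the test.

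*Tnfsf10* (TRAIL; chromosome 3, 27317077 to 27339665, plus strand) was a late gene with no difference between genotypes that passed the test. It was 4.75, 4.43, and 4.60 RPKM at 0 hr, 2.99, 3.42, and 4.09 RPKM at 4 hr, and 11.7, 11.6, and 11.9 RPKM at 48 hr in WT cells of the *Stat5b* line, with the 48 hr libraries above all others of these. The log2 fold change at 48 hr was 1.18 (SE 0.16, adjusted p = 4.1e-08) in WT and 1.56 (SE 0.16, adjusted p = 3.4e-10) in KI cells of this line, and 1.46 and 1.95 in the *Stat5a* line. With all 48 libraries the values were 1.26 and 1.60 in the *Stat5b* line (adjusted p = 0.16 and 0.1). In WT cells of the *Stat5a* line the value was then 1.55 (adjusted p = 0.079). These 3 calls are thus lost with about as large a fold. Between genotypes the widest log2 fold change was −0.86 at 4 hr in the *Stat5a* line (SE 0.19, adjusted p = 0.0021), which was −0.41 without the shallow WT library and passed without WT replicate 1 (−1.14), WT replicate 3 (−1.07), or KI replicate 2 (−1.02).

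*Cd70* (chromosome 17, 57145997 to 57149777, minus strand) was near the floor of the measurement, with group means of 0.0574 to 0.336 RPKM. Ranges of all neighboring groups in that order overlapped. *Cd70* passed in 4 comparisons. In WT cells of the *Stat5b* line it rose at 24 hr, by 2.31 on the log2 scale against 0 hr (SE 0.69, adjusted p = 0.0042) and by 2.19 against 4 hr (SE 0.67, adjusted p = 0.0061). At 48 hr against 0 hr it rose by 1.65 in WT cells of the *Stat5a* line (SE 0.67, adjusted p = 0.028), a call lost without WT replicate 1 or 2 at 0 hr (1.63 and 1.44) or replicate 3 at 48 hr (1.47). It was higher in KI than in WT cells at 4 hr in the *Stat5b* line (log2 fold change 1.83, SE 0.68, adjusted p = 0.041). At so few reads this last call is lost when any 1 of its 6 libraries is left out (log2 fold change 1.57 to 2.17), and with the replicate number as a block the log2 fold change is 1.80 and the adjusted p 0.053.

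**Figure D4:**
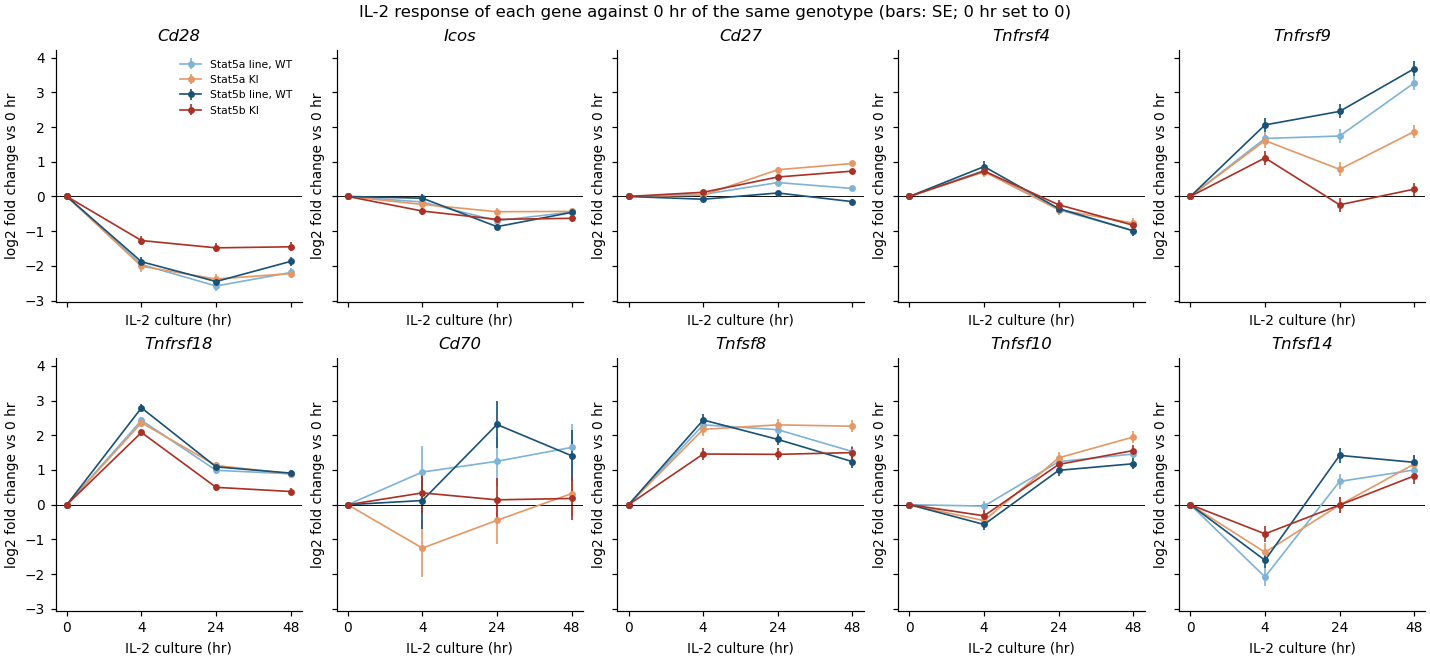
The log2 fold change against 0 hr of the same line and genotype is plotted against hours of IL-2 culture for each gene, with SE bars and 0 hr set to 0. At 24 and 48 hr the KI curve of *Tnfrsf9* lies below the WT curve in both lines, while at 4 hr KI and WT stand at 1.61 and 1.67 in the *Stat5a* and 1.11 and 2.06 in the *Stat5b* line, those of *Cd28* lie below 0 in every group, and the bars of *Cd70* are the widest.

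Between consecutive times in WT cells, 5 of 20 steps passed in the *Stat5a* line, beside 14.5% over all genes, and 6 of 20 in the *Stat5b* line, beside 11.3%. From 4 to 24 hr *Tnfsf10* and *Tnfsf14* rose while *Tnfrsf4* and *Tnfrsf18* fell in both lines, and from 24 to 48 hr *Tnfrsf9* rose in both. The remaining step that passed was *Cd70* from 4 to 24 hr in the *Stat5b* line. The targeted genes themselves passed no comparison of KI with WT cells. *Stat5b* in the *Stat5b* line had log2 fold changes of −0.17, −0.07, 0.37, and 0.47 at 0, 4, 24, and 48 hr, and *Stat5a* in the *Stat5a* line 0.01, 0.18, −0.18, and 0.11. The substitution changes a codon and not the gene's dose, so these levels do not check the labels.

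The other genes of the pathway were taken as 4 lists. Their counts at 48 hr stand beside the same 8.78% (*Stat5a* line) and 26.3% (*Stat5b* line) of all genes. Of 22 other TNF receptors tested (23 listed), 3 were higher and 1 was lower in *Stat5a* KI cells, and 8 were higher and 1 was lower in *Stat5b* KI cells. The median log2 fold change was 0.28 and 0.77, beside 0.04 and 0.10 over all genes. The lower one was CD30, *Tnfrsf8*, the receptor of the ligand encoded by *Tnfsf8*. It was 1.64 ± 0.511 RPKM in WT and 0.355 ± 0.0393 in KI cells of the *Stat5b* line (log2 fold change −2.29, SE 0.38, adjusted p = 2.2e-06), and 1.66 ± 0.875 and 0.135 ± 0.0181 in the *Stat5a* line (−3.65, SE 0.41, adjusted p = 6.1e-09). *Ltbr*, the lymphotoxin beta receptor, *Ngfr*, the low-affinity neurotrophin receptor, and *Tnfrsf13c*, the BAFF receptor of B cells, were higher in both lines. *Cd40*, *Tnfrsf13b*, and *Tnfrsf17*, further receptors known from B cells, and *Tnfrsf11a* and *Eda2r* were higher in *Stat5b* KI cells. *Tnfrsf13c* was 7.795 ± 0.284 RPKM in *Stat5b* KI and 0.850 ± 0.0256 in WT cells, beside the B cell markers given above, whose part was not tested. The most abundant of these receptors, *Tnfrsf14* (HVEM), had 50.4 ± 5.80 RPKM in *Stat5b* KI and 24.9 ± 0.476 in WT cells, under 2-fold in the fit.

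Of 14 other TNF ligands, 3 were higher and 2 lower in *Stat5a* KI cells and 4 were higher and 4 lower in *Stat5b* KI cells at 48 hr (median log2 fold change 0.01 and 0.86, beside 0.04 and 0.10 over all genes). The lower ones were *Lta* and *Fasl* in both lines, with *Tnf* and *Tnfsf11* in the *Stat5b* line. *Lta*, lymphotoxin alpha, was 83.0 ± 5.28 RPKM in WT and 7.11 ± 0.478 in KI cells of the *Stat5b* line (log2 fold change −3.62, SE 0.13, adjusted p = 1.6e-22), and 81.95 ± 8.27 and 12.1 ± 0.559 in the *Stat5a* line (−2.81, SE 0.12, adjusted p = 2.2e-19). *Fasl*, which triggers death through FAS, was 16.5 ± 1.51 in WT and 5.46 ± 1.2 RPKM in KI cells of the *Stat5b* line. *Tnf* was 30.2 ± 0.969 and 8.765 ± 0.798 RPKM there. The higher ones were *Cd40lg*, *Tnfsf12*, and *Tnfsf13* in both lines and *Tnfsf13b* in the *Stat5b* line. *Cd40lg* is a ligand of CD4 T cells and one of the CD4 T cell markers, and *Tnfsf13* (APRIL) and *Tnfsf13b* (BAFF) are known from myeloid cells. *Ltb*, the most abundant ligand, was at 364 ± 19.1 RPKM in *Stat5b* KI and 260 ± 9.88 in WT cells.

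Of 13 other CD28 and B7 family genes and pair receptors tested (14 listed), *Icosl* and *Cd276* were higher in KI cells of both lines at 48 hr, and *Pdcd1lg2*, a ligand of PD-1, was lower in the *Stat5b* line (log2 fold change −1.76, SE 0.21, adjusted p = 5.7e-09). The median was 0.06 in the *Stat5a* and 0.28 in the *Stat5b* line, and the most abundant gene, *Cd2*, did not pass. Of 24 adaptors and signaling genes below these receptors, 0 passed in the *Stat5a* line, while 2 were lower in *Stat5b* KI cells, with medians of 0.04 and −0.03. They were *Bcl2l1*, an inhibitor of apoptosis, at 32.3 ± 1.88 RPKM in WT and 10.8 ± 1.86 in KI cells (log2 fold change −1.66, SE 0.12, adjusted p = 2.0e-14), and *Siva1*, whose protein binds CD27, at 34.65 ± 0.621 and 13.7 ± 3.06 RPKM (−1.42, SE 0.16, adjusted p = 2.0e-09). *Pik3cd* was the most abundant gene of the list. The TRAF adaptors among them did not pass in either line.

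**Figure D5:**
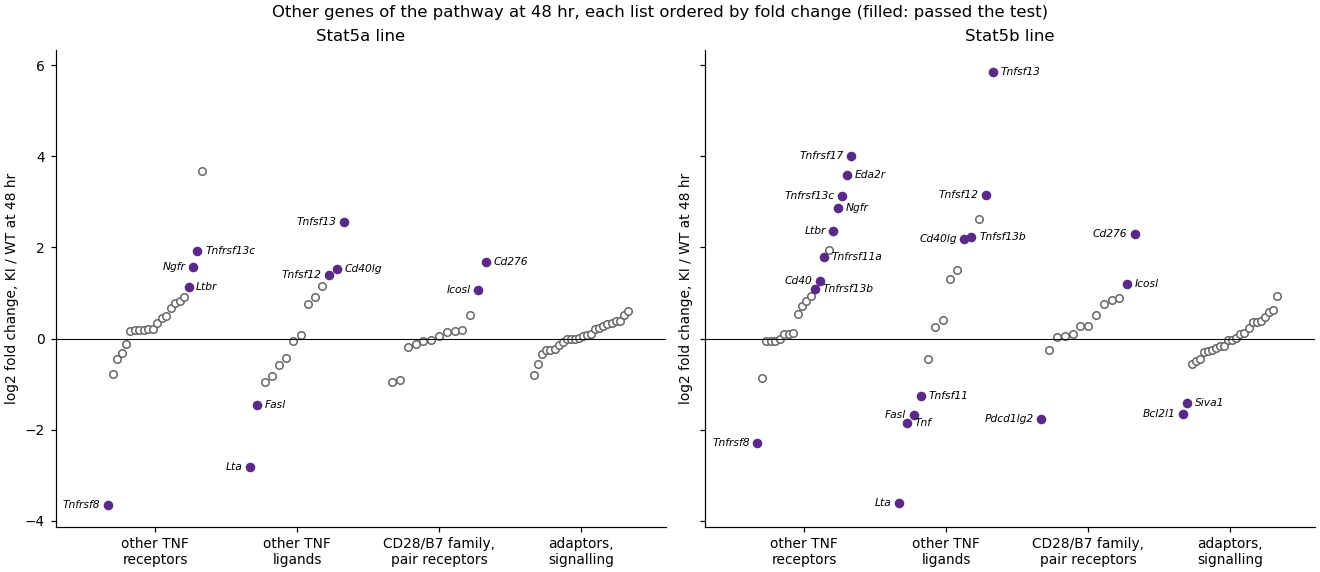
The log2 fold change of KI against WT cells at 48 hr is plotted for the other genes of 4 pathway lists in the *Stat5a* (left) and *Stat5b* (right) line, ordered by value within each list, with genes that passed the test filled and named. *Tnfrsf8* and *Lta* are the lowest of their lists in both lines, and 22 of 24 adaptors in the *Stat5b* line are open symbols.

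After 48 hr of IL-2 in WT cells, 36.6% of all genes passed against 0 hr (*Stat5a* line) and 35.3% (*Stat5b* line). Among the other TNF receptors 2 were higher and 8 lower in each line. Of the ligands 3 were higher and 4 lower with *Stat5a* WT libraries, and 4 and 5 with those of the *Stat5b* line. The CD28 and B7 list had 1 higher gene in each line, with 4 and 3 lower, and the adaptors had 4 and 3 higher, with 2 lower in each. *Tnfrsf8* rose by 3.38 and 2.81 on the log2 scale (SE 0.41 and 0.40), *Lta* by 4.13 and 4.41, and *Bcl2l1* by 2.37 and 2.33 in the *Stat5a* and *Stat5b* line.

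Genes with a like pattern were sought by Pearson's correlation of log2 CPM (counts scaled to library size) over the 16 group means among 11679 genes, as a description. The closest to *Tnfrsf9* were *Pgrmc2* (0.971), *Uhrf1bp1* (0.966), and *Ccp110* (0.962), and the closest to *Tnfrsf18* were *Heatr5a* (0.979), *Tulp3* (0.959), and *Bcl2l11* (0.956). For *Tnfrsf4* they were *Csf2rb* (0.977), *Basp1* (0.977), and *Ern1* (0.974), and for *Cd28* *Cited2* (0.982), *Frmd4b* (0.975), and *Gla* (0.973). *Icos* was nearest to *Tigit* (0.905), *Lag3* (0.900), and *Polm* (0.896), 2 of which are inhibitory receptors of T cells, and *Cd27* to *Patz1* (0.929), *Cd8b1* (0.926), and *Mr1* (0.897). Among ligands, *Tnfsf8* was nearest to *Zfp146* (0.987), *Ms4a6b* (0.979), and *Bloc1s6* (0.978), *Tnfsf10* to *Cdr2l* (0.952), *Hk1* (0.946), and *Sdr42e1* (0.943), and *Tnfsf14* to *Ly6c1* (0.964), *Orc1* (0.962), and *Xcl1* (0.961). *Cd70* had no neighbor above 0.766. The group means share libraries, depth, and the changing make-up of the cultures.

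Several of the 10 genes lie close together on the chromosome. *Tnfrsf4* and *Tnfrsf18* are 9.7 kb apart on the plus strand of chromosome 4, *Cd70* and *Tnfsf14* 39.7 kb apart on the minus strand of chromosome 17, and *Cd28* and *Icos* 204.6 kb apart on the plus strand of chromosome 1. *Cd28* fell in all 12 comparisons of IL-2 with 0 hr, and *Icos* passed in none of them.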

How the data were processed

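RNA-seq of splenic CD8+ T cells was used from 47 of 48 libraries. Per the labels, the authors aligned single-end reads of 50 bp to the mm10 build (GRCm38), and their tools include Bowtie2 2.2.6, TopHat2 2.0.11, SAMtools 0.1.8, bedtools 2.25.0, and edgeR. They deposited raw read counts per RefSeq transcript and RPKM values computed from them. The counting program and the use of strand are not given in the sources used here. Replicate 3 of *Stat5a* KI cells at 4 hr was left out.

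The longest transcript stood for each symbol. Raw counts were fitted with edgeR 4.0.16 (R 4.3.3) by the quasi-likelihood test with TMM scaling, filterByExpr with a minimum count of 10, and 1 coefficient per group, for 34 contrasts in 11 families. P-values were Benjamini-Hochberg adjusted over the 15566 genes tested in each contrast, and SE is the log2 fold change divided by the square root of F. A floor of 3 counts corresponds to 0.0498 to 0.173 CPM. Figures were drawn with matplotlib 3.10.9. In a simulation of *Stat5b* KI against WT at 48 hr on 15409 genes, 93% of 100 genes changed 2.5-fold were recovered and 98% of 100 changed 4-fold. Only these genes differed between the genotypes, and they were drawn from those above a limit on mean level. In the data 26.3% of genes passed in this comparison. The rates need not hold there, nor for a gene as low as *Cd70*.

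The 10 genes, the pathway and marker lists, and the tests were chosen with earlier results of these data known. Genes named are the 10, *Stat5a* and *Stat5b*, list genes that passed in KI against WT at 48 hr, the most abundant gene of each pathway and marker list, and the 3 nearest genes by correlation. The most abundant gene of 1 marker list is not reported here.

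Alternatives were DESeq2 1.42.0 size factors and its Wald test, no filter, all 48 libraries, a block for the replicate number, only the groups compared, limma 3.58.1 on log2(RPKM + 1) of genes at RPKM 1 or more in 3 libraries, the transcript with the highest mean RPKM, no fold threshold, and each library left out in turn. Replicate numbers are shared by the labels. They were taken to pair libraries where each of 3 pairs had a correlation of deviations over 0.1. In the *Stat5a* line this held for 24 hr (0.206 to 0.419) and 48 hr (0.117 to 0.192) against 0 hr in WT cells, as read from the data and not from the labels.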

Additional observations from a re-analysis of the deposited data

Results flagged for a closer look

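For 6 values the test of the difference itself passed, by the quasi-likelihood test of edgeR, adjusted over all genes. The IL-2 response of *Tnfrsf9* differed between KI and WT cells by −1.40 at 48 hr in the *Stat5a* line (adjusted p = 2.0e-04), and by −2.69 at 24 hr (1.1e-09) and −3.46 at 48 hr (1.2e-12) in the *Stat5b* line. That of *Tnfsf14* differed by −1.43 at 24 hr in the *Stat5b* line (3.8e-04). The KI effect differed between the lines by −1.13 for *Tnfsf14* at 24 hr (0.011) and by −1.17 for *Tnfrsf9* at 48 hr (0.0034). All values are log2 differences, over 3 libraries in each group. The mean sums of B and myeloid cell markers were higher in KI than in WT libraries at every time in both lines, 0 hr included. Those of memory-phenotype CD8 T cell markers were lower in KI libraries. In KI and WT libraries of the *Stat5b* line they were 292.5 and 446 RPKM (0 hr), 363 and 830.8 RPKM (24 hr), and 528.5 and 1142 RPKM (48 hr). In the *Stat5a* line they were 252.1 and 331.4 RPKM (0 hr), 408.3 and 618.1 RPKM (24 hr), and 609.1 and 987.9 RPKM (48 hr). *Tnfrsf9* at 0 hr was 7.721 and 4.739 RPKM in KI and WT libraries of the *Stat5b* line, and 4.412 and 5.168 RPKM in the *Stat5a* line. The part of these markers was not tested.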

How the results depend on the processing

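Of the 340 results for single genes, 339 kept their direction and side of the threshold with DESeq2 size factors and with DESeq2's Wald test. With the replicate number as a block 339 did, and the exception was *Cd70* for KI against WT at 4 hr in the *Stat5b* line (log2 fold change 1.80, adjusted p = 0.053). With no filter 333 did, with the transcript of highest mean RPKM 336, and with all 48 libraries 322. *Cd70* gave no value in limma, nor in 15 results with only the groups compared, since it did not pass those filters, and 295 and 322 of the others held. The 4 reversals were all of *Tnfsf10* with all 48 libraries, where the left-out library has 11.43 RPKM of this gene. They were *Stat5a* KI cells at 4 hr against 0 hr (5.04, beside −0.46), KI against WT at 4 hr (4.56, beside −0.86), the IL-2 response at 4 hr of KI minus WT (5.00, beside −0.42), and the KI effect at 4 hr of the *Stat5b* minus the *Stat5a* line (−4.51, beside 0.88). Under this setting *Tnfsf10* also lost the calls at 48 hr named above. Its calls from 4 to 24 hr in WT cells of both lines were lost too. So were those at 24 hr against 0 hr in *Stat5a* line WT and KI cells and in *Stat5b* KI cells.

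Without the fold threshold the calls of the *Stat5a* line were 25 for IL-2 in WT cells (beside 63.0% of all genes' comparisons), 12 for steps (49.2%), 24 for IL-2 in KI cells (56.7%), 11 for KI against WT (22.7%), and 5 for the difference in IL-2 response (11.5%). In the *Stat5b* line they were 24 for IL-2 in WT cells (59.7%), 15 for steps (44.6%), 21 for IL-2 in KI cells (49.3%), 26 for KI against WT (41.0%), and 10 for the difference in response (28.4%), and between the lines 12 (9.07%). All 48 libraries gave 4 calls of KI against WT and 2 of the difference in response in the *Stat5a* line, and limma gave 4 of KI against WT in the *Stat5b* line. Leaving out 1 library, the counts in the same order were 14 to 16, 4 to 5, 14 to 15, 1 to 3, and 1 to 2 in the *Stat5a* line, 16 to 18, 6 to 6, 10 to 11, 5 to 7, and 3 to 5 in the *Stat5b* line, and 1 to 4 between the lines. *Tnfrsf18* at 4 hr in *Stat5b* KI cells (−0.98 to −0.99 by count fits, −0.90 by limma) and *Tnfsf14* at 48 hr (−0.81 by limma) fell under 2-fold, as did *Tnfsf14* at 4 hr against 0 hr by limma in *Stat5a* KI (−0.72, beside −1.37) and *Stat5b* line WT cells (−0.94, beside −1.60). Depth limits *Cd70*, with 1 to 23 reads in a library, and no test of depth was made for the other 9 genes.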
